A study of Mus musculus with 48 samples.

Results

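The enzymes and regulators of cholesterol and fatty acid synthesis were followed in natural killer (NK) cells of the mouse spleen. The set is a list of 29 gene symbols chosen by name and pathway, not by their values. Of these, 28 are among the 24328 symbols counted in the 48 RNA-seq libraries, and the remaining symbol was not analysed here. All 28 passed the filter on low counts in the conditional experiment, and 26 passed it in each of the other experiments. Idi1 and Fads2 did not pass there, so the counts below of changed genes cover 28 or 26 genes and leave those cases out.

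The libraries fall into 14 groups from 3 experiments on Bach2, which encodes a transcriptional repressor of lymphocytes. In the chimera experiment 4 libraries labelled Bach2-KO and 4 labelled WT came from unfractionated NK cells of mixed chimeras, hosts given about equal parts of both marrows, so that the genotypes matured in the same hosts. In the conditional experiment cKO animals (Bach2flox/flox Ncr1Cre) were set against cWT animals (Ncr1Cre), with 3 libraries for each of the fractions NK, iNK, mNK1 and mNK2. Both arms carry Cre from Ncr1, a receptor gene active in NK cells and some other innate lymphocytes, so deletion is limited to cells that express it. In the third experiment unmodified WT animals gave 4 libraries each of iNK, mNK1, KLRG1- mNK2 and KLRG1+ mNK2 cells, KLRG1 being an inhibitory receptor that marks late NK cells. No sample was treated. The ages of the animals, the surface markers of the gates and the host cells left in the chimeras are not given in the sources used here. By the usual naming iNK are immature and mNK mature NK cells, and they are read here as a maturation series.

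Cholesterol is built from acetyl-CoA through mevalonate, isoprenoid units, squalene and lanosterol, and then by a chain of steps that trim and reshape the sterol. Fatty acids are built from the same acetyl-CoA and are then elongated and desaturated. Most genes of both routes are targets of the SREBP transcription factors, which are held in the endoplasmic reticulum by INSIG proteins when sterols are plentiful and are released when sterols are scarce. Lymphocytes raise both routes when they grow and divide, and activated NK cells are known to use SREBP in their metabolism.

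Totals ran from 8557018 to 12927472 counts per library in the chimeras, from 13650636 to 21029172 in the conditional experiment and from 8973777 to 11924274 in the WT fractions. Levels are given as CPM, counts scaled to a common library total, and 3 counts in a library stand for 0.132 to 0.366 CPM. Bach2 averaged 2.11 ± 0.926 CPM in KO libraries and 15.5 ± 2.21 CPM in WT libraries of the chimeras (SD, n = 4 each), a log2 fold change of -2.89 ± 0.27 (edgeR adjusted p = 2.73e-07). Among the conditional libraries it was not lower in the libraries labelled cKO: mNK1 held 25.1 ± 5.35 CPM in cKO and 13.5 ± 2.86 CPM in cWT (SD, n = 3 each). The counts cover the whole gene and so do not show whether a floxed part was lost. Ncr1 also stood apart. It was at 1569, 1550 and 1578 CPM in cKO NK libraries, against 229, 198 and 826 CPM in cWT NK libraries, and cWT replicate 3 was the highest cWT library for Ncr1 in all 4 fractions. The stage comparisons in cWT were therefore also fitted without replicate 3 in any fraction, where 14 of the 26 calls of single genes remained and 12 were lost. The lost calls were those of Acly, Fasn, Idi1, Sqle, Cyp51, Mvk and Msmo1 for mNK2 over iNK, of Idi1, Cyp51 and Msmo1 for mNK2 over mNK1 and of Fads2 and Mvd for mNK1 over iNK. All 13 markers of NK cells were found in every group.

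The sequences before the start of 6 genes are shown because these genes moved in opposite directions between iNK and mNK2 cells: Mvk, Srebf2 and, in cWT only by the test, Idi1 were lower in mNK2, and Nsdhl, Ebp and Dhcr7 were higher. Each is the stretch of 150 bases just upstream of the start in RefSeq, build GRCm38.p6, 5′ to 3′ on the gene's strand. Capitals mark CCAAT or its reverse complement ATTGG, the box bound by NF-Y, a factor known to work with SREBP at sterol genes.
Mvk, chr5:114444119-114444268, plus strand: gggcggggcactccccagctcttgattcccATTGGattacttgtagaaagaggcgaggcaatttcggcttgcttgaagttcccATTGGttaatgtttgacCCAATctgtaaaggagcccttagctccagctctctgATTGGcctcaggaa
Idi1, chr13:8885456-8885605, plus strand: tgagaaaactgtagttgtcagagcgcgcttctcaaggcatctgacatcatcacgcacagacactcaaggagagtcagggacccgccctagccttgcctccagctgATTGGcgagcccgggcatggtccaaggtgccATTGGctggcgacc
Srebf2, chr15:82147119-82147268, plus strand: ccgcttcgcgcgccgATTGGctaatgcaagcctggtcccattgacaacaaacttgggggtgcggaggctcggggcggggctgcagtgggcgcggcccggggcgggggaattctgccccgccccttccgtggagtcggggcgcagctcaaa
Nsdhl, chrX:72918371-72918520, plus strand: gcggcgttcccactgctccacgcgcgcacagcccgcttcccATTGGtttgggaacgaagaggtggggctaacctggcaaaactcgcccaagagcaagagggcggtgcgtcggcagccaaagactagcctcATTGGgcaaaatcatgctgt
Ebp, chrX:8193513-8193662, minus strand: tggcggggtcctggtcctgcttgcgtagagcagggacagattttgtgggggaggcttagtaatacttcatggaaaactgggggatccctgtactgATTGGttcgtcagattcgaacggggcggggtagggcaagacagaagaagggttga
Dhcr7, chr7:143823017-143823166, plus strand: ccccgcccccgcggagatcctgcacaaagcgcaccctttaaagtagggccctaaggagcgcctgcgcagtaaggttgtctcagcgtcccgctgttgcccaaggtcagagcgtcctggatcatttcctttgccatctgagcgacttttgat

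Both directions of change are found among promoters with the box: Mvk holds 4 copies in the printed stretch, Idi1 and Nsdhl hold 2 each, Srebf2 and Ebp hold 1 each, and the printed Dhcr7 stretch holds 0. RefSeq lists 3 starts for Dhcr7, and the window of another of them holds 2 copies, through which Dhcr7 is counted among the genes with the box. Over the 250 bases before the start, read on both strands, CCAAT was found in 17 of the 21 members that have a window in the RefSeq table (81%), against 37.5% of 27025 genes. The E-box CACGTG was found in 4 of the 21 (19%), against 6.86% of genes. TGACTCA, the core of the element that BACH proteins bind with small MAF proteins, was found in 2 of the 21 (9.52%), against 5.16% of genes. A sterol regulatory element of the form TCACNCCAC was found in 0 of the 21, against 1.22% of genes. Genes with several starts were counted once if any window held the letters, and copies of different motifs were counted apart whether or not they overlapped. The letters were matched by gene symbol and describe these windows only, and the deposited counts were aligned to another build (mm9).

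Loss of Bach2 in the chimeras went with change in 2 of the 26 tested genes, Scd1 lower and Acly higher, which is 7.69% beside 5% of all genes tested. Scd1, the stearoyl-CoA desaturase that makes monounsaturated fatty acids, had 1.03, 0, 1.71 and 0.561 CPM in the KO libraries and 11.8, 4.12, 5.86 and 3.25 CPM in the WT libraries. The highest KO library lay below the lowest WT library, and the log2 fold change was -2.95 ± 0.62 (edgeR adjusted p = 0.0101). In bulk libraries such as these, fewer cells of a type and less RNA per cell cannot be told apart. All 8 tested markers of B cells also fell in the KO libraries. Their summed level was 16.2 to 46.2 CPM in KO and 78.2 to 219.8 CPM in WT libraries, with Cd79a at 1.35 to 2.68 CPM in KO and 11.3 to 43.4 CPM in WT. None of the 10 listed B cell markers was at 0 in all libraries of either group. T cell markers were lower as well, with 3 of 6 tested called and a sum of 8.704 to 16.8 CPM in KO and 49.6 to 87.7 CPM in WT libraries, and none of the 8 listed was at 0 throughout a group. The part of either cell type in the Scd1 result was not tested.

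Acly, the ATP citrate lyase that supplies cytosolic acetyl-CoA to both routes, had 400.4, 363, 429 and 384 CPM in KO libraries and 331, 352, 292 and 334 CPM in WT libraries. The groups did not overlap, and the log2 fold change was 0.27 ± 0.073 (adjusted p = 0.0334). The call is weak: the adjusted p reached 0.123 when single libraries were left out, and it passed 0.05 without KO replicate 1 or 3 or WT replicate 1, 3 or 4. Markers of NK cells moved in the same unfractionated libraries, with 5 of 13 called higher and 1 called lower. Klrg1, a gene of late NK cells, was at 758 to 902 CPM in KO and 433 to 459 CPM in WT libraries, and Cd27, a receptor gene of less mature NK cells, was at 58.3 to 76.7 CPM in KO and 104 to 141 CPM in WT libraries. Their part in the Acly result was not tested. Across the 26 genes the median log2 fold change was 0.0029, against -0.0091 over all genes, with 13 of 26 above 0.

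Fads1 and Fads2, the delta-5 and delta-6 desaturases that lead to arachidonic acid, are neighbouring genes. Fads1 had 7.101, 6.32, 9.88 and 2.43 CPM in KO libraries and 3.37, 2.58, 3.96 and 4.04 CPM in WT libraries, with KO replicate 4 below all 4 WT libraries. Its log2 fold change of 0.86 ± 0.34 did not pass (adjusted p = 0.194), and without KO replicate 4 it was 1.15 with an adjusted p of 0.0153. That fit drops the KO library that ran against the others and is quoted for that reason, so it is no support for a change. Fads2 missed the filter on low counts, at 1.96, 1.76, 1.59 and 0.374 CPM in KO libraries and 0.0962, 0.103, 0.0733 and 0.0792 CPM in WT libraries, where each WT library held fewer than 3 counts. All KO libraries lay above all WT libraries, and with no filter its edgeR adjusted p was 0.00514. Markers of myeloid cells were higher in the same libraries. Their summed level was 71.6 to 206 CPM in KO and 16.3 to 31.2 CPM in WT libraries, Lyz2 was at 115, 43.4, 167 and 63.5 CPM in KO and 16.5, 10.7, 18.7 and 9.27 CPM in WT, and 2 of 3 tested markers passed. Neutrophil markers summed to 125 to 582 CPM in KO and 2.37 to 59.3 CPM in WT libraries, with 2 of 7 tested called higher. KO replicate 4 did not have the lowest Lyz2 of the KO libraries. Whether these cells account for the desaturase counts was not tested.

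**Figure D1:**
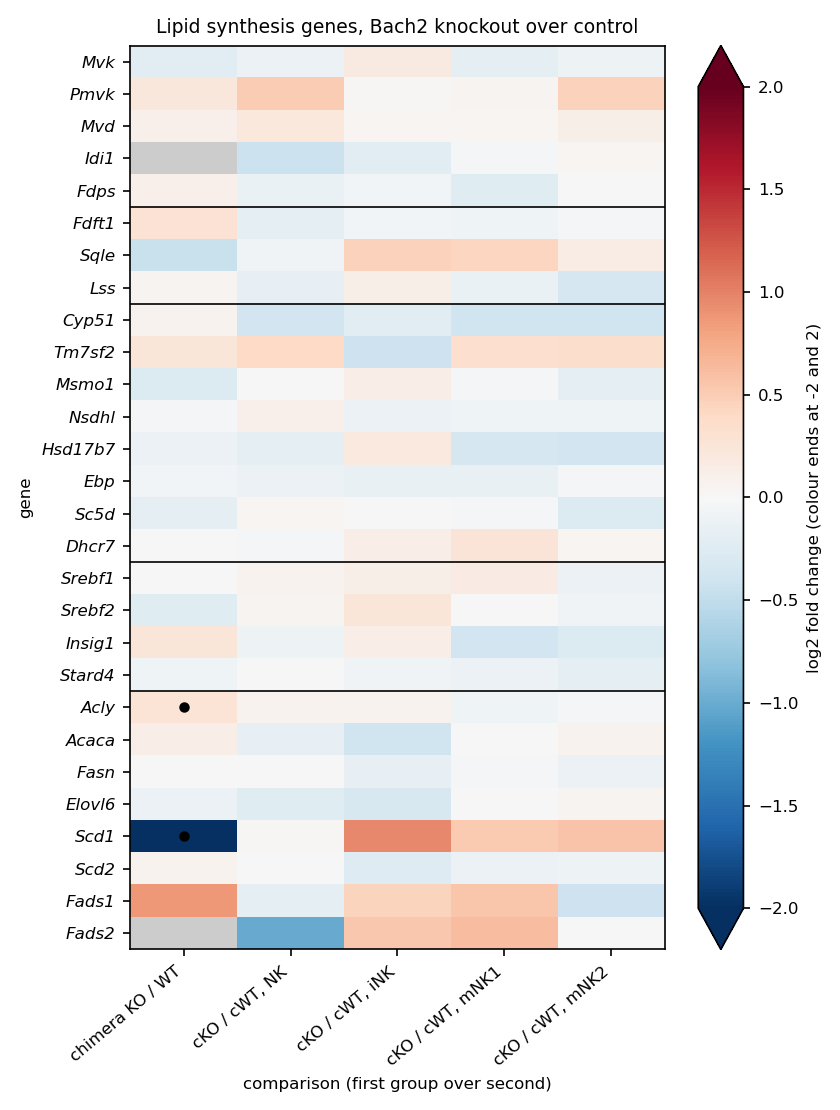
Log2 fold change of each lipid synthesis gene in libraries labelled Bach2 knockout over their controls, for the chimeras and 4 conditional fractions, by role from the mevalonate genes (top) to the fatty acid genes (bottom). Dots mark an edgeR adjusted p under 0.05 and grey marks genes under the count filter; the dots stand at Scd1 and Acly in the chimeras and nowhere in the conditional columns.

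In the conditional experiment none of the 28 genes changed between cKO and cWT in any fraction by the edgeR test. The shares of all genes called were 0.571% in NK, 0.294% in iNK, 0.571% in mNK1 and 0.261% in mNK2, so few genes of any kind were called. At an unadjusted p under 0.05 there were 4, 2, 3 and 2 of the 28 in that order, DESeq2 also called 0 in each fraction, and the count stayed 0 without cWT replicate 3. Median log2 fold changes of the 28 were -0.046, 0.031, -0.025 and -0.057, beside 0.0039, 0.023, 0.0058 and -0.018 over all genes. For the libraries labelled cKO, the Bach2 counts above do not show that the gene was lost.

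The genes closest to the threshold differed between fractions. In NK these were Fads2, with 1.73, 1.69 and 1.82 CPM in cKO and 4.39, 2.97 and 3.16 CPM in cWT libraries, and Elovl6, an elongase of saturated fatty acids, with 28.6, 28.3 and 25.4 CPM in cKO and 33.6, 32.004 and 32.01 CPM in cWT. Both sets of libraries were apart, with log2 fold changes of -1.0003 ± 0.38 (adjusted p = 0.361) and -0.25 ± 0.10 (adjusted p = 0.408). In iNK these were Scd1, with 25.8, 15.6 and 15.3 CPM in cKO and 9.31, 11.5 and 8.28 CPM in cWT, and Elovl6, with 19.9, 20.5 and 22.5 CPM in cKO and 24.5, 26.6 and 27.8 CPM in cWT. Their log2 fold changes were 0.96 ± 0.28 (adjusted p = 0.224) and -0.32 ± 0.10 (adjusted p = 0.261). The sign of Scd1 was opposite to that in the chimeras, and here too it had the sign of the B cell markers: their sum was 792 to 1433 CPM in cKO iNK and 508 to 795 CPM in cWT iNK, with all 10 higher and 1 called. Their part in the Scd1 values was not tested.

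In mNK1 the closest were Cyp51, the lanosterol demethylase, with 9.97, 9.27 and 9.81 CPM in cKO and 13.4, 12.002 and 12.8 CPM in cWT, and Insig1, the sterol sensor that retains SREBP, with 7.07, 7.92 and 9.38 CPM in cKO and 10.9, 9.84 and 11.1 CPM in cWT. Both were apart between the genotypes, at -0.39 ± 0.16 (adjusted p = 0.425) and -0.38 ± 0.16 (adjusted p = 0.447) on the log2 scale. In mNK2 they were Sc5d, the lathosterol desaturase, with 59.9, 66.3 and 58.6 CPM in cKO and 70.1, 75.7 and 78.4 CPM in cWT, and Cyp51, with 5.96, 8.46 and 6.51 CPM in cKO and 7.67, 9.47 and 10.3 CPM in cWT. Their log2 fold changes were -0.28 ± 0.10 (adjusted p = 0.686) and -0.39 ± 0.16 (adjusted p = 0.8598). Cyp51 was thus below 0 in all 4 fractions without passing in any, at -0.38 ± 0.16 in NK and -0.22 ± 0.16 in iNK, and at 0.074 ± 0.20 in the chimeras.

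In the conditional experiment more of these genes were called between iNK and mNK2 than between the genotypes. The same held over all genes, at 40.4% in cKO and 36.7% in cWT between these stages and 0.261% to 0.571% between genotypes. Between iNK and mNK2 these genes moved in both directions, also among enzymes of the same stretch of the route. In both cKO and cWT, Scd2, Ebp, Dhcr7 and Nsdhl were higher in mNK2, and Scd1, Fdps, Fads1, Srebf2, Sqle, Cyp51 and Mvk were lower. In WT KLRG1+ mNK2, Scd2, Acly, Ebp and Nsdhl were higher than in iNK, and Fasn, Srebf2, Fads1 and Scd1 were lower. In cKO mNK2 against iNK 5 of 28 rose and 9 fell, which is 50% beside 40.4% of all genes (16.7% rose and 23.7% fell). In cWT mNK2 against iNK 6 rose and 9 fell, 53.6% beside 36.7% of all genes (16.9% rose and 19.8% fell), and without cWT replicate 3 in any fraction 4 rose and 5 fell. In WT KLRG1+ mNK2 against iNK 4 of 26 rose and 4 fell, 30.8% beside 30.6% of all genes (15% rose and 15.6% fell). The medians were -0.17, -0.19 and 0.0095 in that order, against -0.032, -0.013 and -0.019 over all genes.

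Single steps of the series held fewer calls. For mNK1 against iNK 4 rose and 7 fell in cKO, 39.3% beside 22.7% of all genes, and the count was 6 without iNK replicate 3 and 7 without mNK1 replicate 1. In cWT 2 rose and 2 fell, 14.3% beside 18.5%, with a count of 2 without replicate 3 or without mNK1 replicate 1. Of the 26 in WT animals 4 rose and 1 fell, 19.2% beside 10.5%, with a count of 3 without mNK1 replicate 1 or 4. For mNK2 against mNK1 2 rose and 4 fell in cKO, 21.4% beside 21.3%. In cWT 2 rose and 5 fell, 25% beside 20.3%, with a count of 4 without replicate 3 or without mNK2 replicate 2. Among WT fractions 0 of 26 were called by edgeR or DESeq2 between KLRG1- mNK2 and mNK1 (7.29% of all genes), with 2 at an unadjusted p under 0.05, and 0 between KLRG1+ and KLRG1- mNK2 (1.36%), with 1 at that level.

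**Figure D2:**
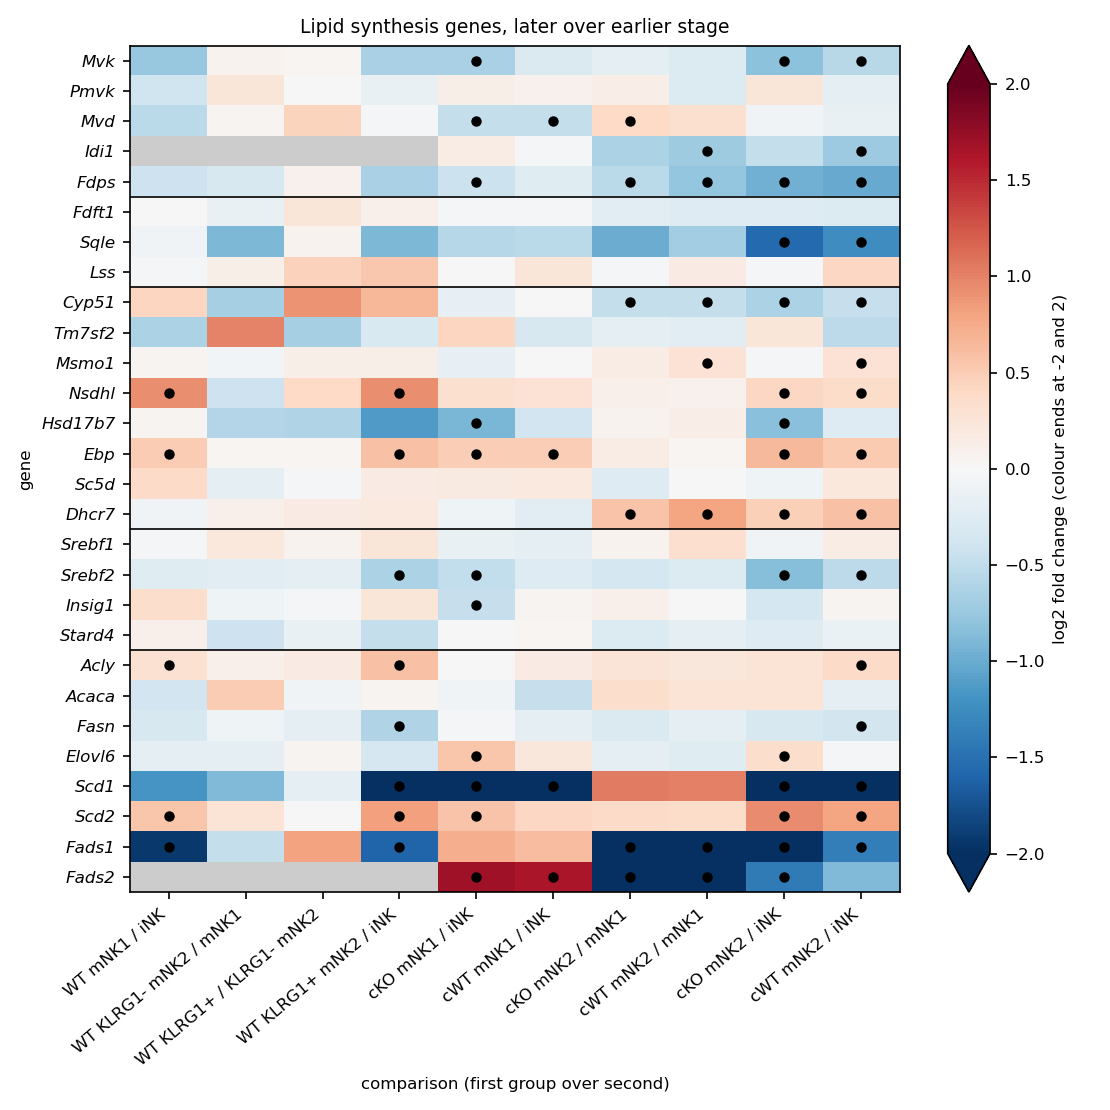
Log2 fold change of each lipid synthesis gene for later over earlier maturation stages in the WT fractions (left 4 columns) and in cKO and cWT animals (right 6 columns), with dots at an edgeR adjusted p under 0.05 and grey for genes under the count filter. Fdps, Srebf2 and Fads1 are blue in both mNK2 over iNK columns of the conditional experiment and Ebp, Nsdhl, Dhcr7 and Scd2 are red, all with dots.

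The iNK fraction held more RNA of other lymphocytes than the mature fractions. Summed B cell markers were at 792 to 1433 CPM in cKO iNK and 508 to 795 CPM in cWT iNK, then 52.8 to 61.8 and 34.2 to 42.6 CPM in mNK1 and 46.95 to 73.03 and 36.4 to 49.7 CPM in mNK2 of the same genotypes. T cell markers summed to 1049 to 1480 CPM in cKO iNK and 1053 to 1500 CPM in cWT iNK, against 5.02 to 8.12 and 4.63 to 14.95 CPM in mNK2. All 10 B cell and all 8 T cell markers fell from iNK to mNK2 in both genotypes. For WT animals the B cell sum was 15.5 to 19.5 CPM in KLRG1+ mNK2 and 128 to 310.0 CPM in iNK, and the T cell sum was 2.45 to 5.15 CPM in KLRG1+ mNK2, where Cd4 and Cd5 were at 0, and 435 to 522 CPM in iNK. Genes of the cell cycle were also lower: 14 of 15 fell in mNK2 against iNK in cKO, 15 of 15 in cWT and 6 of 15 in WT KLRG1+ mNK2. Their sums were 403 to 435 CPM in cKO mNK2 and 839.7 to 1003 CPM in cKO iNK. Neutrophil markers went the other way. They summed to 15.6 to 23.8 CPM in cKO mNK2 and 1.77 to 1.98 CPM in cKO iNK (3 of 7 called higher and 1 lower), and to 33.5 to 178 CPM in cWT mNK2 and 0.4903 to 9.37 CPM in cWT iNK (6 of 7 called higher and 1 lower). In WT they summed to 0.442 to 23.4 CPM in KLRG1+ mNK2 and 0 to 0.464 CPM in iNK, with 0 of 6 called by edgeR and 2 at an unadjusted p under 0.05. Of the 9 neutrophil markers counted, 2 were at 0 in every cKO iNK library, 5 in every cWT iNK library and 7 in every WT iNK library. Myeloid markers also had higher sums in mNK2, at 163 to 186 CPM in cKO mNK2 and 50.6 to 92.8 CPM in cKO iNK, and 166 to 328 CPM in cWT mNK2 and 23.2 to 82.2 CPM in cWT iNK, although of the 8 tested 1 was called higher and 5 lower in each genotype. The part of these cells and of division in the lipid gene changes was not tested.

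Among the mevalonate genes, Fdps was the clearest. It encodes farnesyl diphosphate synthase, which joins the isoprenoid units. In cKO it had 40.1, 39.9 and 41.5 CPM in iNK, 30.2, 31.2 and 28.9 CPM in mNK1 and 20.5, 23.3 and 18.5 CPM in mNK2. In cWT it had 45.5, 41.4 and 39.04 CPM in iNK, 39.3, 38.98 and 28.4 CPM in mNK1 and 22.6, 20.6 and 19.3 CPM in mNK2. All mNK2 libraries lay below all iNK and mNK1 libraries of both genotypes, and the mNK2 over iNK log2 fold change was -0.96 ± 0.12 in cKO (adjusted p = 4.21e-07) and -1.01 ± 0.12 in cWT (adjusted p = 2.43e-07). Most of the fall in cWT lay between mNK1 and mNK2, at -0.77 ± 0.12 (adjusted p = 3.45e-05), while in cKO both steps passed, at -0.43 ± 0.12 for mNK1 over iNK and -0.54 ± 0.12 for mNK2 over mNK1. Fdps in WT animals had 6.72, 4.95, 5.59 and 4.86 CPM in KLRG1+ mNK2 and 8.58, 10.8, 9.03 and 6.31 CPM in iNK, with groups that overlapped and a log2 fold change of -0.64 ± 0.32 that did not pass (adjusted p = 0.131).

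Set against iNK, the other mevalonate genes were lower in mNK2 or were not called. Mvk, mevalonate kinase, had 6.27, 5.19 and 4.75 CPM in cKO mNK2 and 7.73, 10.8 and 10.3 CPM in cKO iNK, and 7.29, 5.72 and 4.31 CPM in cWT mNK2 and 8.05, 9.99 and 7.51 CPM in cWT iNK. It fell by the test in both, at -0.83 ± 0.21 (adjusted p = 0.00276) and -0.56 ± 0.21 (adjusted p = 0.0392), but in cWT the adjusted p reached 0.209 and the call held only without iNK replicate 3 or mNK2 replicate 1. Idi1, the isomerase of the isoprenoid unit, had 3.87, 2.86 and 3.64 CPM in cWT mNK2 and 5.87, 5.52 and 5.84 CPM in cWT iNK, a log2 fold change of -0.73 ± 0.24 (adjusted p = 0.0198), with the call lost without replicate 3 of iNK or of all cWT fractions or without mNK2 replicate 2 (adjusted p up to 0.10005). Against mNK1 it was -0.71 ± 0.24 (adjusted p = 0.0404), and leaving out any library of either fraction took the adjusted p past 0.05, up to 0.171. Mvd, the decarboxylase that makes that unit, dipped at mNK1. It was at 20.9, 22.3 and 20.9 CPM in iNK, 12.9, 17.2 and 16.2 CPM in mNK1 and 20.7, 24.4 and 16.01 CPM in mNK2 of cKO, and at 21.5, 20.8 and 19.9, 14.3, 15.5 and 14.98 and 18.4, 18.3 and 19.5 CPM in the same fractions of cWT. Its mNK1 over iNK log2 fold change was -0.47 ± 0.13 in cKO (adjusted p = 0.01001, or 0.0798 without mNK1 replicate 1) and -0.47 ± 0.13 in cWT (adjusted p = 0.0125, and up to 0.069999 without mNK1 replicate 1 or without replicate 3 of all fractions). Its higher level in cKO mNK2 than mNK1 (0.40 ± 0.13, adjusted p = 0.0317) rested on mNK1 replicate 1 and mNK2 replicates 1 and 2, without any of which it did not pass (adjusted p up to 0.253). Pmvk, phosphomevalonate kinase, passed in no comparison and lay between 7.14 and 15.7 CPM in the conditional libraries.

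Sqle, squalene epoxidase and a rate-limiting step after squalene, was counted at low levels. It had 5.097, 2.42 and 5.402 CPM in iNK, 2.97, 3.42 and 2.34 CPM in mNK1 and 1.02, 1.996 and 1.38 CPM in mNK2 of cKO. In cWT it had 3.83, 3.37 and 2.23, 2.03, 2.23 and 2.18 and 0.759, 2.04 and 1.12 CPM in the same fractions. The mNK2 libraries lay below the iNK libraries in both genotypes, with log2 fold changes of -1.56 ± 0.38 (adjusted p = 0.001998) and -1.25 ± 0.39 (adjusted p = 0.0139). The cWT call was lost without iNK replicate 1, mNK2 replicate 1 or 3, or replicate 3 of all cWT fractions (adjusted p up to 0.0788). Fdft1, squalene synthase, and Lss, lanosterol synthase, passed in no comparison: their mNK2 over iNK values were -0.26 ± 0.13 and -0.042 ± 0.24 in cKO and -0.28 ± 0.13 and 0.41 ± 0.24 in cWT.

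The enzymes that convert lanosterol to cholesterol split by direction. Dhcr7, the reductase of the last step, was higher at mNK2. It had 13.7, 14.2 and 14.1 CPM in iNK, 12.7, 14.5 and 12.2 CPM in mNK1 and 19.4, 19.96 and 19.2 CPM in mNK2 of cKO. In cWT the values were 13.4, 12.99 and 11.9, 9.77, 11.01 and 12.4 and 17.7, 18.6 and 20.97 CPM. Every mNK2 library lay above every iNK and mNK1 library of both genotypes, and mNK2 over mNK1 was 0.57 ± 0.12 in cKO (adjusted p = 7.85e-04) and 0.79 ± 0.12 in cWT (adjusted p = 2.52e-05). Dhcr7 in WT animals had 50.2, 44.1, 52.2 and 54.6 CPM in KLRG1+ mNK2 and 42.4, 51.7, 45.7 and 35.6 CPM in iNK, which overlapped, and 0.20 ± 0.14 did not pass (adjusted p = 0.2998).

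Ebp, the sterol isomerase, was higher in mature cells of all 3 maturation series. It had 163, 137 and 142 CPM in cKO mNK2 and 90.1, 107 and 84.8 CPM in cKO iNK, 168, 154 and 126 CPM in cWT mNK2 and 116, 89.2 and 106 CPM in cWT iNK, and 129, 136, 130.3 and 152 CPM in WT KLRG1+ mNK2 and 111, 102, 73.4 and 77.5 CPM in WT iNK. No group of mNK2 overlapped its iNK group, and the log2 fold changes were 0.65 ± 0.13, 0.53 ± 0.13 and 0.59 ± 0.11 (adjusted p = 3.46e-04, 0.00264 and 3.08e-04). The rise was called already at mNK1, at 0.49 ± 0.13 in cKO, 0.49 ± 0.13 in cWT and 0.51 ± 0.11 in WT. That early call was lost without iNK replicate 1 or 3 in cKO (adjusted p up to 0.0828) and without iNK replicate 2 or mNK1 replicate 1 in cWT (up to 0.128).

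Nsdhl, a dehydrogenase that helps remove the sterol's methyl groups, had 38.4, 37.7 and 39.8 CPM in cKO mNK2 and 29.8, 28.4 and 28.5 CPM in cKO iNK, and 42.7, 40.3 and 39.6 CPM in cWT mNK2 and 32.9, 32.5 and 29.1 CPM in cWT iNK. In the WT fractions it had 33.7, 27.001, 25.9 and 32.6 CPM in mNK1 and 11.7, 21, 13.1 and 16.6 CPM in iNK, so every mNK1 library exceeded every iNK library. Its log2 fold changes were 0.42 ± 0.12 (adjusted p = 0.00556) and 0.37 ± 0.12 (adjusted p = 0.0136) for mNK2 over iNK in cKO and cWT, and 0.93 ± 0.20 (adjusted p = 0.00297) for WT mNK1 over iNK. Msmo1, the methylsterol oxidase of the same stretch, rose in cWT mNK2, at 0.29 ± 0.088 against iNK and 0.29 ± 0.088 against mNK1. In cKO the values were -0.019 ± 0.088 and 0.15 ± 0.088 and did not pass, and the interaction for mNK2 over mNK1, at -0.14 ± 0.12, was not called either. Both Msmo1 calls were lost without mNK2 replicate 2 or without replicate 3 of all cWT fractions (adjusted p up to 0.0555 and 0.0854).

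Cyp51 ran the other way. It had 5.96, 8.46 and 6.51 CPM in cKO mNK2 and 10.8, 11.1 and 10.6 CPM in cKO iNK, and 7.67, 9.47 and 10.3 CPM in cWT mNK2 and 11.4, 13.3 and 13.3 CPM in cWT iNK. All mNK2 libraries lay below the iNK libraries of their genotype, at -0.64 ± 0.16 (adjusted p = 0.002697) and -0.47 ± 0.16 (adjusted p = 0.0227). The cWT call was lost without iNK replicate 2 or 3, mNK2 replicate 1 or replicate 3 of all fractions (adjusted p up to 0.128). Against mNK1 it fell too, at -0.47 ± 0.16 in cKO and -0.47 ± 0.16 in cWT, but these calls held only without mNK2 replicate 2 in cKO and only without mNK2 replicate 3 in cWT (adjusted p otherwise up to 0.192 and 0.163). Cyp51 was scattered in WT animals, with 15.003, 10.01, 13.4 and 6.63 CPM in KLRG1+ mNK2 and 3.97, 13.5, 8.94 and 2.13 CPM in iNK, and nothing passed. Hsd17b7, the sterol ketoreductase, had 4.23, 4.63 and 4.83 CPM in cKO mNK2 and 9.01, 7.78 and 7.69 CPM in cKO iNK and fell, with a log2 fold change of -0.84 ± 0.24 (adjusted p = 0.00746). It had 6.45, 6.26 and 5.204 CPM in cWT mNK2 and 6.27, 6.803 and 8.38 CPM in cWT iNK, where -0.26 ± 0.24 did not pass (adjusted p = 0.435), and the difference between the genotypes in that step was not tested. Tm7sf2, a sterol reductase, and Sc5d passed in no comparison.

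Of the regulators, Srebf2, which encodes the SREBP that favours sterol genes, was lower in mature cells of all 3 series. In cKO it had 77.7, 66.4 and 86.4 CPM in iNK, 54.4, 57.4 and 52.3 CPM in mNK1 and 35.9, 40.7 and 51.7 CPM in mNK2. In cWT it had 68.1, 67.2 and 59.05, 43.99, 64.6 and 54.1 and 38.6, 44.1 and 52.6 CPM in the same fractions. In WT it had 33.9, 32.9, 37.4 and 33.4 CPM in KLRG1+ mNK2 and 61.99, 51.2, 45.9 and 53.98 CPM in iNK. No mNK2 group overlapped its iNK group. The log2 fold changes were -0.85 ± 0.15 (adjusted p = 6.98e-05) in cKO, -0.52 ± 0.15 (adjusted p = 0.00795, or 0.052 without mNK2 replicate 1) in cWT and -0.63 ± 0.16 (adjusted p = 0.00443) in WT. In cKO it had also fallen at mNK1 (-0.49 ± 0.15, adjusted p = 0.0179), a call lost without replicate 3 of iNK or of mNK1 (adjusted p up to 0.0768).

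Srebf1, which encodes the SREBP that favours fatty acid genes, passed in no comparison. It had 136, 147, 106 and 137 CPM in WT KLRG1+ mNK2 and 104, 110.1, 124 and 104 CPM in WT iNK, and its mNK2 over iNK values were -0.077 ± 0.13 in cKO, 0.15 ± 0.13 in cWT and 0.25 ± 0.13 in WT. Insig1 was called in cKO mNK1 against iNK, with 7.07, 7.92 and 9.38 CPM in mNK1 and 11.1, 10.97 and 11.6 CPM in iNK and a log2 fold change of -0.46 ± 0.16 (adjusted p = 0.0371). That call held only without mNK1 replicate 3 and was otherwise lost (adjusted p up to 0.151). Stard4, a carrier of cholesterol between membranes, passed in no comparison.

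**Figure D3:**
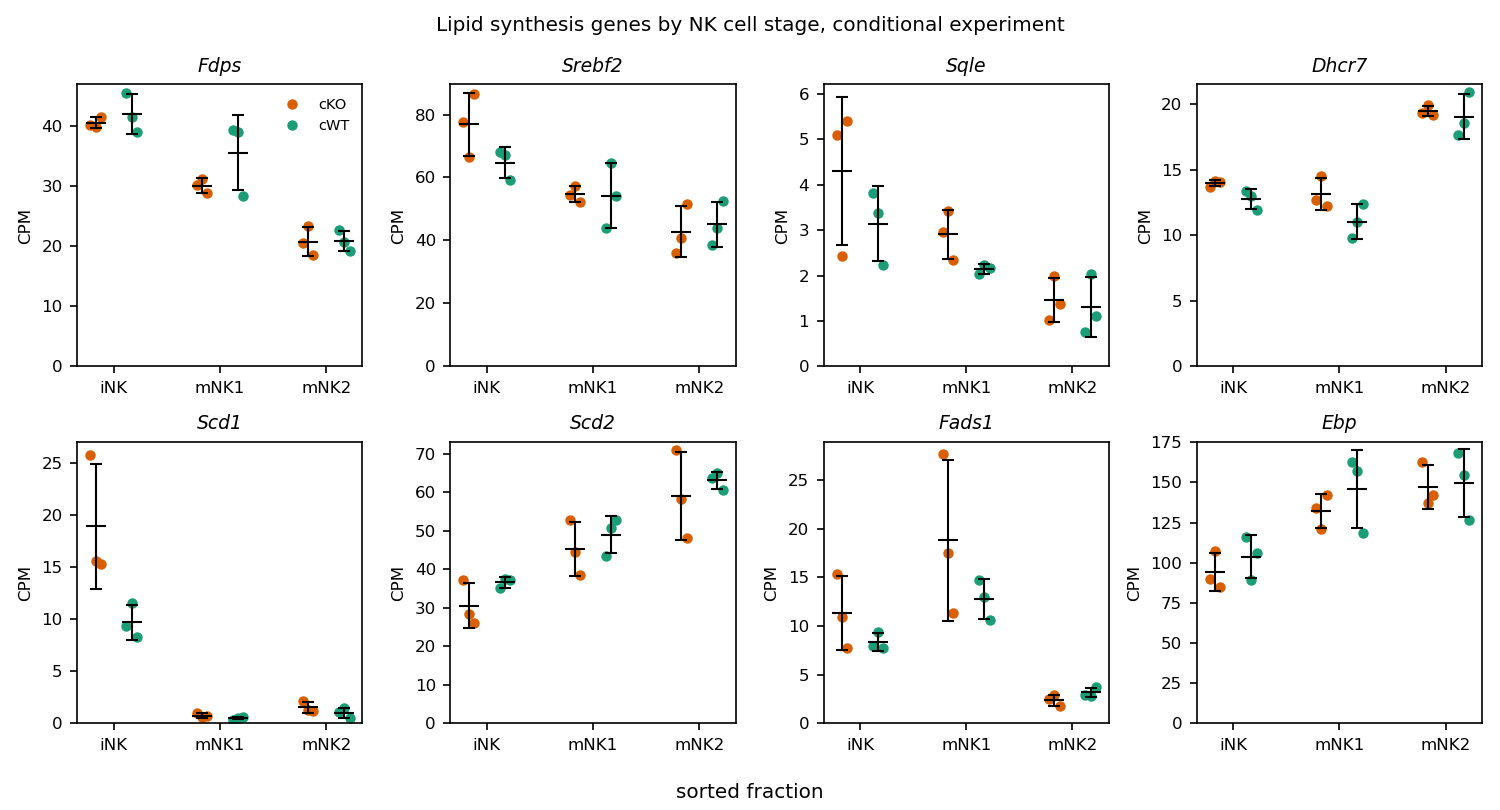
CPM of 8 lipid synthesis genes in iNK, mNK1 and mNK2 libraries of the conditional experiment, cKO left of cWT, with a point per library and bars for the mean ± SD of 3 libraries. Fdps, Srebf2 and Sqle step down with maturation and Dhcr7, Scd2 and Ebp are higher in mNK2 than in iNK; Scd1 is high in iNK and Fads1 is low in mNK2.

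The fatty acid genes moved in both directions as well. Acly had 409, 389, 369 and 432 CPM in WT KLRG1+ mNK2 and 247, 287, 235 and 296 CPM in WT iNK, apart from each other, with a log2 fold change of 0.59 ± 0.098 (adjusted p = 4.86e-05). It was called at mNK1 (0.31 ± 0.098, adjusted p = 0.0419), which was lost without iNK replicate 1 or 3 or mNK1 replicate 1, 3 or 4 (adjusted p up to 0.136), and with RLE factors. In cWT mNK2 over iNK it was 0.39 ± 0.12 (adjusted p = 0.0126, up to 0.0822 without mNK2 replicate 3 or replicate 3 of all fractions), and in cKO 0.28 ± 0.12 did not pass (adjusted p = 0.06599). Fasn, the fatty acid synthase, was lower: WT KLRG1+ mNK2 had 90.7, 84.7, 64.3 and 85.5 CPM and WT iNK had 120.1, 145, 110.5 and 119 CPM, a log2 fold change of -0.60 ± 0.12 (adjusted p = 3.86e-04). In cWT -0.37 ± 0.13 passed (adjusted p = 0.02998) but held only without iNK replicate 1 or mNK2 replicate 3 (adjusted p otherwise up to 0.182), and in cKO -0.32 ± 0.13 did not pass (adjusted p = 0.05599). Acaca, the acetyl-CoA carboxylase between those steps, passed in no comparison.

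Scd2, a stearoyl-CoA desaturase isoform, rose with maturation in all 3 series. It had 70.8, 58.1 and 48.1 CPM in cKO mNK2 and 37.2, 28.4 and 26.1 CPM in cKO iNK, 63.8, 64.96 and 60.7 CPM in cWT mNK2 and 35.05, 37.6 and 37.2 CPM in cWT iNK, and 120.2, 127, 109.7 and 120.0 CPM in WT KLRG1+ mNK2 and 56.3, 79.5, 61.2 and 72.7 CPM in WT iNK. No pair of groups overlapped, and the log2 fold changes were 0.95 ± 0.18, 0.79 ± 0.18 and 0.82 ± 0.12 (adjusted p = 1.52e-04, 0.00111 and 7.82e-06). At mNK1 it had risen by 0.56 ± 0.12 in WT (adjusted p = 0.00261) and by 0.56 ± 0.18 in cKO (adjusted p = 0.0225). The cKO call was lost without mNK1 replicate 1 or iNK replicate 2 or 3 (adjusted p up to 0.106). Elovl6 rose in cKO, with 32.4, 30.7 and 28.996 CPM in mNK1 and 19.9, 20.5 and 22.5 CPM in iNK (0.55 ± 0.10, adjusted p = 2.35e-04). Its cWT values were 29.5, 32.7 and 30.02 CPM in mNK1 and 24.5, 26.6 and 27.8 CPM in iNK, a log2 fold change of 0.23 ± 0.10 that did not pass (adjusted p = 0.132).

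Scd1 went against Scd2. It had 25.8, 15.6 and 15.3 CPM in iNK, 0.9897, 0.571 and 0.679 CPM in mNK1 and 2.12, 1.28 and 1.23 CPM in mNK2 of cKO, and 9.31, 11.5 and 8.28, 0.362, 0.557 and 0.613 and 1.14, 1.43 and 0.5204 CPM in the same fractions of cWT. The mNK1 over iNK log2 fold change was -4.65 ± 0.36 in cKO (adjusted p = 7.57e-10) and -4.22 ± 0.38 in cWT (adjusted p = 1.09e-08). WT animals had 1.92, 0.21999, 0.175 and 2.32 CPM in KLRG1+ mNK2 and 2.47, 1.69, 9.303 and 8.63 CPM in iNK, which overlapped, with -2.25 ± 0.86 (adjusted p = 0.0491), lost without any of KLRG1+ replicates 1, 2 and 3 or iNK replicates 3 and 4 (adjusted p up to 0.144). The same libraries differed in Cd79a, a component of the B cell receptor, at 238 to 446 CPM in cKO iNK and 172 to 312 CPM in cWT iNK, against 15.1 to 17.96 and 6.81 to 14.1 CPM in mNK1 of those genotypes. The iNK libraries were thus high for both genes in each genotype.

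Fads1 and Fads2 were high in mNK1 and low in mNK2 of the conditional experiment. Fads1 had 15.3, 10.9 and 7.77 CPM in iNK, 27.6, 17.5 and 11.3 CPM in mNK1 and 2.51, 2.87 and 1.76 CPM in mNK2 of cKO, and 7.92, 9.38 and 7.72, 14.8, 12.99 and 10.6 and 2.96, 2.86 and 3.72 CPM in those of cWT. Fads2 had 2.79, 1.72 and 1.76, 7.63, 8.201 and 4.63 and 1.02, 0.319 and 0.996 CPM in cKO and 1.58, 1.8998 and 0.863, 4.85, 3.16 and 5.38 and 0.531, 0.477 and 1.34 CPM in cWT in the same order. All mNK2 libraries lay below all mNK1 libraries for both genes. For mNK2 over mNK1 Fads1 was -2.98 ± 0.33 in cKO (adjusted p = 3.77e-07) and -2.01 ± 0.32 in cWT (adjusted p = 6.04e-05), and Fads2 was -3.11 ± 0.42 in cKO (adjusted p = 5.38e-06) and -2.50 ± 0.42 in cWT (adjusted p = 1.14e-04). From iNK to mNK1 Fads2 rose, at 1.70 ± 0.37 in cKO and 1.63 ± 0.39 in cWT (adjusted p = 0.00135 and 0.00358, the cWT value 0.0746 without replicate 3 of all fractions). Fads1 did not pass there, at 0.73 ± 0.28 and 0.62 ± 0.29. In cKO mNK2 over iNK Fads2 was -1.41 ± 0.43 (adjusted p = 0.0114), a call lost without iNK replicate 1 or mNK2 replicate 2 (adjusted p up to 0.0769).

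Myeloid markers also had their highest mean sum at mNK1. They summed to 50.6 to 92.8 CPM in iNK, 427 to 1036 CPM in mNK1 and 163 to 186 CPM in mNK2 of cKO, and to 23.2 to 82.2, 236 to 743 and 166 to 328 CPM in cWT, with none of the 8 markers at 0 throughout a group. The rise of the sum was not shared across the list: from iNK to mNK1 1 of the 8 rose and 1 fell in each genotype. The median log2 fold change of the 8 in that step was 0.28 in cKO and -0.14 in cWT. Of the 8, 0 rose and 6 fell from mNK1 to mNK2 in cKO, and 0 rose and 2 fell in cWT. In the WT fractions the order differed. Fads1 had 7.51, 11.6, 7.51 and 6.77 CPM in iNK, where Lyz2 was at 0 to 1.88 CPM and Cd14, Fcgr1 and Flt3 were at 0, and 0.935, 1.64, 4.22 and 1.97 CPM in mNK1, where Lyz2 was at 10.5 to 35.5 CPM. There Fads1 was lower in mNK1 (-1.93 ± 0.59, adjusted p = 0.0362) and in KLRG1+ mNK2 (-1.60 ± 0.58, adjusted p = 0.03799) than in iNK. The mNK1 call held only without iNK replicate 1 or 4 or mNK1 replicate 3 (adjusted p otherwise up to 0.108), and the mNK2 call was lost without iNK replicate 2 or 3 or KLRG1+ replicate 2 or 4 (up to 0.107). Fads2 was listed at 0 in 15 of the 16 WT libraries. The part of myeloid RNA in these values was not tested.

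**Figure D4:**
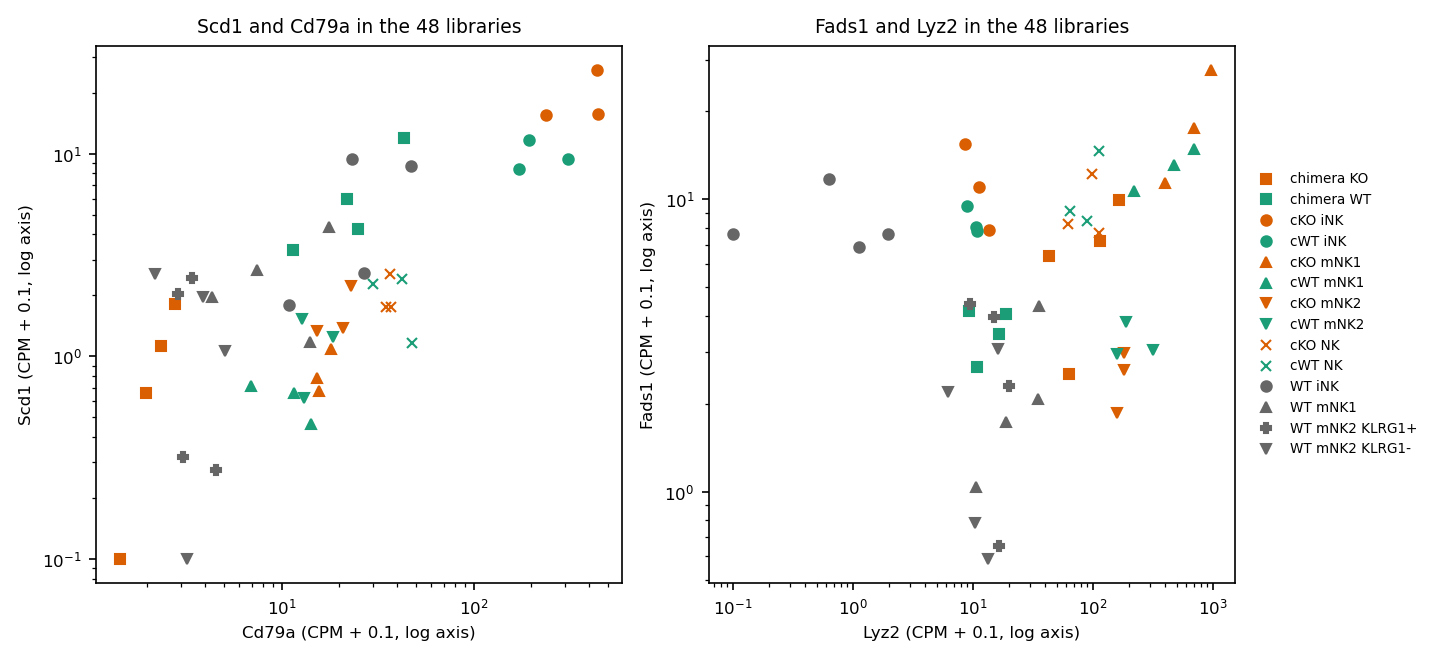
Scd1 against the B cell marker Cd79a (left) and Fads1 against the myeloid marker Lyz2 (right) in each of the 48 libraries, in CPM + 0.1 on log axes; the 3 experiments were scaled apart. The iNK libraries of the conditional experiment are the highest of that experiment for both Scd1 and Cd79a, and the WT iNK libraries hold Fads1 at 6.77 to 11.6 CPM with the lowest Lyz2.

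No interaction of genotype and stage was called for these genes in either single step, and the interaction for mNK2 over iNK was not tested. For mNK1 over iNK 0 of 28 genes had an interaction of genotype and stage (0% of all genes), with 2 at an unadjusted p under 0.05, Insig1 at -0.52 ± 0.22 and Elovl6 at 0.32 ± 0.14. For mNK2 over mNK1 0 of 28 did (0.00816% of all genes), with Fads1 at -0.97 ± 0.45 at that level. DESeq2 called 0 in both. Of the 14 members called in cKO mNK2 over iNK, 11 (78.6%) were called in the same direction in cWT, where they are 73.3% of 15, and over all genes the shares were 77.4% and 85.2%. The 8 members called in WT KLRG1+ mNK2 over iNK were all called the same way in cWT mNK2 over iNK, where they are 57.1% of the 14 called among genes tested in both, and 0 were called the opposite way. Over all genes the shares were 68.6% and 56.1%. Those 8 are Acly, Ebp, Nsdhl and Scd2 higher and Fads1, Fasn, Scd1 and Srebf2 lower.

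Summed over members, levels of iNK and mNK2 libraries overlapped in cKO and did not in cWT. In mNK2 libraries the sum was 766 to 836 CPM in cKO and 831 to 857 CPM in cWT, and in iNK libraries it was 765 to 825 CPM in cKO and 759 to 798 CPM in cWT. Chimera KO libraries held 1075 to 1148 CPM and chimera WT libraries 999 to 1126 CPM. These sums are dominated by the most counted genes, such as Acly and Ebp.

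Other genes of lipid synthesis and traffic were taken from lists of names. Of 13 tested genes of fatty acid activation and elongation, 4 rose and 2 fell in cKO mNK2 against iNK (46.2% beside 40.4% of all genes), 5 rose and 1 fell in cWT (46.2% beside 36.7%), and 5 rose and 2 fell in WT KLRG1+ mNK2 (53.8% beside 30.6%). Acss2, which makes acetyl-CoA from acetate, rose by 1.23 ± 0.090, 1.24 ± 0.090 and 1.89 ± 0.11 in that order (adjusted p = 8.38e-11, 9.13e-11 and 1.74e-12). Lpin1, a phosphatidate phosphatase of lipid synthesis, rose by 1.60 ± 0.098, 1.53 ± 0.098 and 1.65 ± 0.10. Elovl5, an elongase of polyunsaturated fatty acids, fell in cKO at -0.97 ± 0.084 and in cWT at -0.89 ± 0.084. In the chimeras Acss2 was also higher in KO than in WT libraries, with 235, 219.8, 226 and 190.1 CPM in KO and 166, 157, 157 and 153 CPM in WT (0.46 ± 0.073, adjusted p = 2.49e-04). It was the only gene of its list called there, and the shift of Klrg1 and Cd27 in these libraries stands beside it too. In the conditional mNK1 fraction the only call of that list was Hsd17b12, a reductase of the elongation cycle, at -0.41 ± 0.094 (adjusted p = 0.0448).

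Of 13 further sterol genes tested, 3 rose and 5 fell in cKO mNK2 against iNK (61.5% beside 40.4% of all genes) and 3 rose and 4 fell in cWT (53.8% beside 36.7%), and of 12 in the WT fractions 2 rose and 0 fell (16.7% beside 30.6%). Npc1, a lysosomal cholesterol transporter, rose in all 3, by 0.86 ± 0.19, 0.69 ± 0.19 and 0.62 ± 0.14 (adjusted p = 9.79e-04, 0.00639 and 0.00176). Insig2, an INSIG isoform, rose by 0.64 ± 0.11, 0.49 ± 0.11 and 0.57 ± 0.18 (adjusted p = 4.35e-05, 9.43e-04 and 0.0154). Of 7 genes of sterol efflux and its LXR regulators, 2 rose and 2 fell in cKO mNK2 against iNK and in cWT (57.1% each), and 1 rose in WT (14.3%), beside the same shares of all genes. Mylip, an LXR target that degrades the LDL receptor, was among the risers, at 0.89 ± 0.10, 0.88 ± 0.10 and 1.14 ± 0.10, and Apoe, a lipid carrier of macrophages, fell at -3.19 ± 0.57 in cKO and -2.72 ± 0.56 in cWT. In the chimeras Apoe was higher in KO, with 36.5, 31.6, 35.9 and 14.7 CPM in KO and 10.9, 13.6, 13.9 and 8.39 CPM in WT (1.34 ± 0.25, adjusted p = 0.00505), beside the higher myeloid markers given above.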

How the data were processed

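RNA-seq counts per gene were deposited for 48 libraries of NK cells sorted from mouse spleens. Per the labels' protocols, a Qiagen RNeasy kit was used for RNA and Clontech SMARTer protocols for the libraries. Per the submitters' processing notes, reads were examined with FastQC and aligned with STAR 2.5.0 to build mm9; the counting program, annotation and strand setting are not given in the sources used here. The deposited values are whole-number counts per gene symbol, with no lengths, so levels were not compared between genes.

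The 3 experiments were fitted apart with the edgeR 4.0.16 quasi-likelihood F test in R 4.3.3 (TMM factors, filterByExpr, robust dispersions, 1 coefficient per group, all groups of an experiment in the fit). The genes tested numbered 10614 for the chimeras, 12258 for the conditional libraries and 11051 for the WT fractions. P-values were adjusted by Benjamini-Hochberg over all genes of a comparison, and "rose", "fell" and "called" mean an adjusted p under 0.05. Fold changes carry their SE on the log2 scale. CPM use TMM-scaled totals, and since the ribosomal RNA gene Rn45s took 18.6% to 29.1% of counts in the WT fractions and 20% to 25.8% in the chimeras, against at most 0.36% in the conditional libraries, levels were not compared across experiments. Floors of 3 counts cover counting error only.

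The members, gene lists and tests were chosen with earlier results of these data known. All members were open to naming, with values in every library for the called members with the smallest p. The labels do not say that replicate numbers mark animals, so p-values measure the spread between these samples. None of the 60 within-group pairs of libraries was identical. Same-numbered libraries did not correlate above 0.1 in every pair of any comparison made, so no block was used. DESeq2 1.42.0, RLE factors, no count filter, fits of only the groups compared, a block, removal of Rn45s and leaving out each library were alternatives, and leaving out cWT replicate 3 in every fraction was added after seeing the data. The fit was tested on simulated data.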

Additional observations from a re-analysis of the deposited data

Results flagged for a closer look

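Among groups of 4 libraries, 40 sets of values of named genes were examined for a library far from its group, and chance gives such a flag in about 1 in 20. Fads1 in WT iNK was flagged because replicate 2, at 11.6 CPM, stood apart among 7.51, 11.6, 7.51 and 6.77 CPM. Fasn in WT mNK1 was flagged because replicate 2, at 113 CPM, stood apart among 93.3, 113, 93.6 and 93.5 CPM. That iNK library was also the highest of its group for Fasn, and that mNK1 library was not the highest for Fads1.

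Scd1 was flagged because its log2 fold change was 0.96 in cKO against cWT iNK and -2.95 in KO against WT chimeras, with no overlap of libraries in either. Fads2 was flagged because its log2 fold change was -1.0003 in cKO against cWT NK, where all cKO libraries lay below all cWT libraries, while in the chimeras all KO libraries, at 0.374 to 1.96 CPM, lay above all WT libraries, at 0.0733 to 0.103 CPM. Neither difference between the experiments was tested, and both conditional values missed the threshold (edgeR adjusted p = 0.224 and 0.361).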

How the results depend on the processing

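The counts of members called in the 17 comparisons stayed within 1.5 times of the reported count under DESeq2, RLE factors, no low-count filter, a fit of only the groups compared (not run for the chimeras, which hold no other group) and removal of Rn45s. Signs were followed for 72 gene calls and 16 results without a call, and none changed under any alternative run. When only the groups compared were fitted, 12 of the 70 gene calls fitted that way missed the threshold. Of 72 gene calls examined, 6 missed it with no filter, 2 with the block and 1 with RLE factors. Leaving out 1 library cost a call in 85 of 462 fits of a called gene and kept it in 377. Without cWT replicate 3 in every fraction 12 of 26 calls were lost. The 16 results without a call were the 2 members with the smallest p where fewer than 2 were called, and none gained a call under the alternatives run. Other named results without a call were not among them. Of those, Fads1 and Fads2 in the chimeras passed in single alternative fits, as given above. For Fads1 this was the fit without the KO library that ran against the others, which is no support for a change.

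Over fits that left out libraries, the count ran from 1 to 4 for KO against WT chimeras (reported 2), from 3 to 5 for WT mNK1 over iNK (5), from 2 to 4 for cWT mNK1 over iNK (4), from 4 to 6 for cWT mNK2 over mNK1 (7), from 9 to 13 for cWT mNK2 over iNK (15) and from 6 to 11 for cKO mNK1 over iNK (11). The chimera count of 4 came without KO replicate 4 and 1 without KO replicate 1 or 3. Without cWT replicate 3 in every fraction the cWT counts were 2, 4 and 9. The cause was not tested, beyond the smaller number of libraries in each such fit.

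In a replicate block fit, the members called were 2 in the chimeras, 0 for cKO against cWT in each fraction, 6 for WT mNK1 over iNK, 6 for WT KLRG1+ mNK2 over iNK, and 5, 8 and 15 for cWT mNK1 over iNK, mNK2 over mNK1 and mNK2 over iNK, with 13, 6 and 14 for the same steps in cKO. Fads1 (adjusted p = 0.0586) and Scd1 (0.0868) lost their calls for WT KLRG1+ mNK2 over iNK. Correlations of same-numbered chimera libraries ran from 0.0933 to 0.136, and each of the 8 was closest to the library of its own number. All 8 libraries also matched their own number for WT mNK1 with KLRG1- mNK2, where correlations ran from 0.0254 to 0.104. The same held for KLRG1- with KLRG1+ mNK2, where they ran from 0.0315 to 0.0713. The labels do not say that a number marks a host or an animal, so these matches are a hint from the data. In the chimeras both genotypes matured in the same hosts, so the design may pair those libraries. The reported chimera p-values come from the edgeR fit without pairing. Depth limits genes near the floor of 3 counts, such as Fads2 and Idi1 outside the conditional experiment.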
